A study of Mus musculus with 12 samples.

Results

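Fatty acid uptake and synthesis was followed through 10 genes in sorted regulatory T cells (Treg), a CD4 lineage that holds immune responses in check. The genes were Cd36, Fabp4, Fabp5, Acsl4, Cpt1a, Acaca, Fasn, Scd1, Scd2 and Dgat2, out of 20811 named genes on the array. They were chosen by name, and the brightest probe of each gene stood for it. Of the 10, 8 gave a signal well above background on all 12 arrays, and Fabp5 and Acaca did not pass the filter on dim probes.

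Each of 4 groups had 3 arrays. IL10+ and IL10- tumour Treg came from VERT-X mice, a C57BL/6 strain in which EGFP reports Il10, and were sorted as CD25+ CD120b+/low CD4 T cells. Total tumour Treg came from FoxP3-EGFP mice, also C57BL/6, and were sorted by EGFP without a split on Il10. In all of these the tumour was MC38, a mouse colon carcinoma line, grown under the skin and pooled at 2 weeks. Spleen Treg were sorted by EGFP from FoxP3-EGFP mice without tumours. All sorts began from CD45+ CD11b-low CD3+ CD4+ cells, and each population was made in 3 experiments. Ages were not given in the sources used here. Strain and sort differ between the VERT-X groups and spleen as well as tissue, so these cannot be told apart there. The comparison of total tumour with spleen Treg keeps strain and sort the same, but the spleen donors carried no tumour, so organ and tumour burden cannot be told apart.

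Cells take up fatty acids through surface proteins such as Cd36, and fatty acid binding proteins carry them through the cytosol. An acyl-CoA synthetase then activates them, after which they enter mitochondria through Cpt1a for oxidation or are stored as triglyceride through Dgat2. Cells also build fatty acids from acetyl-CoA by Acaca and Fasn, and desaturate them by Scd enzymes. Treg have been described as leaning on fatty acid oxidation, and lipid uptake has been described in Treg of tumours.

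A level below is a log2 processed spot signal from which the 75th percentile of its own array was subtracted, so 0 is the signal that 75% of probes do not exceed. Levels of different genes cannot be set against each other, because probes differ in brightness. Differences are in log2 units, with a standard error (SE) from a limma fit to all 12 arrays. A gene was called at a Benjamini-Hochberg adjusted p under 0.05 over 15541 features. In bulk RNA, fewer cells of a type and less RNA per cell cannot be told apart.

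The arrays differed in brightness and makeup. The 75th percentile signal was 98.0 on IL10+ replicate 3, against 305 and 642 on the other IL10+ arrays, and lay between 221 and 512 on the other 9 arrays. The Foxp3 probe went against the label of the FoxP3-EGFP groups: its mean level was 3.74 in IL10+ and 4.06 in IL10- tumour Treg, yet it was not well above background on any array of total tumour or spleen Treg (means -6.36 and -6.06). Among 11 Treg and CD4 T cell markers, Foxp3 was the only gene below background on every array of these FoxP3-EGFP groups. The 11 summed to a linear level of 528 to 553 on spleen arrays and 551 to 748 on total tumour arrays. On IL10+ arrays the range was 382 to 785. Total tumour against spleen Treg had 3 of the 11 called higher and 0 lower. The cause of the Foxp3 signal was not tested. Of 12 macrophage and monocyte markers 11 were called higher in total tumour than in spleen Treg, and so were 9 of 9 fibroblast markers, while 7 of 7 B cell markers were called lower. Summed linear levels of the macrophage markers were 361 to 687 in total tumour and 43.1 to 104 in spleen Treg, and those of the fibroblast markers 111 to 150 and 0.496 to 4.81. The part of such cells in the results below was not tested.

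Tumour Treg carried more Dgat2 and Scd2 RNA than spleen Treg in each of the 3 tumour groups, in which both genes were called higher. Acsl4 rose and Cpt1a fell in total tumour Treg against spleen Treg, and Fabp4 rose in IL10+ tumour Treg against spleen Treg. Fasn, Scd1 and Cd36 passed the test in none of the 5 comparisons. None of the 8 tested genes passed between IL10+ and IL10- tumour Treg. Dgat2 was the nearest to passing there, with a difference of -1.90 (SE 0.61, limma adjusted p = 0.889). This SE draws on the spread in all 4 groups. The SD of Dgat2 was 0.32 in IL10+, 0.36 in IL10-, 0.13 in total tumour and 1.58 in spleen Treg.

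In total tumour against spleen Treg, 3 of the 8 tested genes were called higher and 1 lower, beside 42.3% of all features called in either direction (22% higher and 20.3% lower). In IL10+ tumour against spleen Treg 3 were called higher and 0 lower, beside 50.8% of all features called (23.9% higher and 26.9% lower). In IL10- tumour against spleen Treg 2 were called higher and 0 lower, beside 49% of all features called (24.3% higher and 24.7% lower). Without overlap between groups, 4 of the 8 were higher and 1 lower in total tumour than in spleen Treg, 5 higher and 1 lower in IL10+, and 5 higher and 0 lower in IL10- tumour Treg, beside 65.7%, 57.7% and 61.3% of all features in either direction. The median difference of the 8 was 0.64 in total tumour against spleen Treg, where that of all features was -0.014. It was 0.55 in IL10+ and 0.46 in IL10- tumour Treg against spleen Treg, where those of all features were -0.064 and 0.00061. The 3 comparisons use the same spleen arrays, so their values are set side by side without being counted as separate evidence. With the slide as a fixed block, 0 of the 8 genes passed in IL10+ or in IL10- tumour against spleen Treg, comparisons in which no slide holds both groups. Total tumour and spleen Treg share 1 slide, with 1 total tumour array (replicate 3) against 3 spleen arrays. In values given for a shared slide the lone array is assumed to vary like the arrays of the other groups, whose spread within a group and slide is the only one such a fit has.

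**Figure D1:**
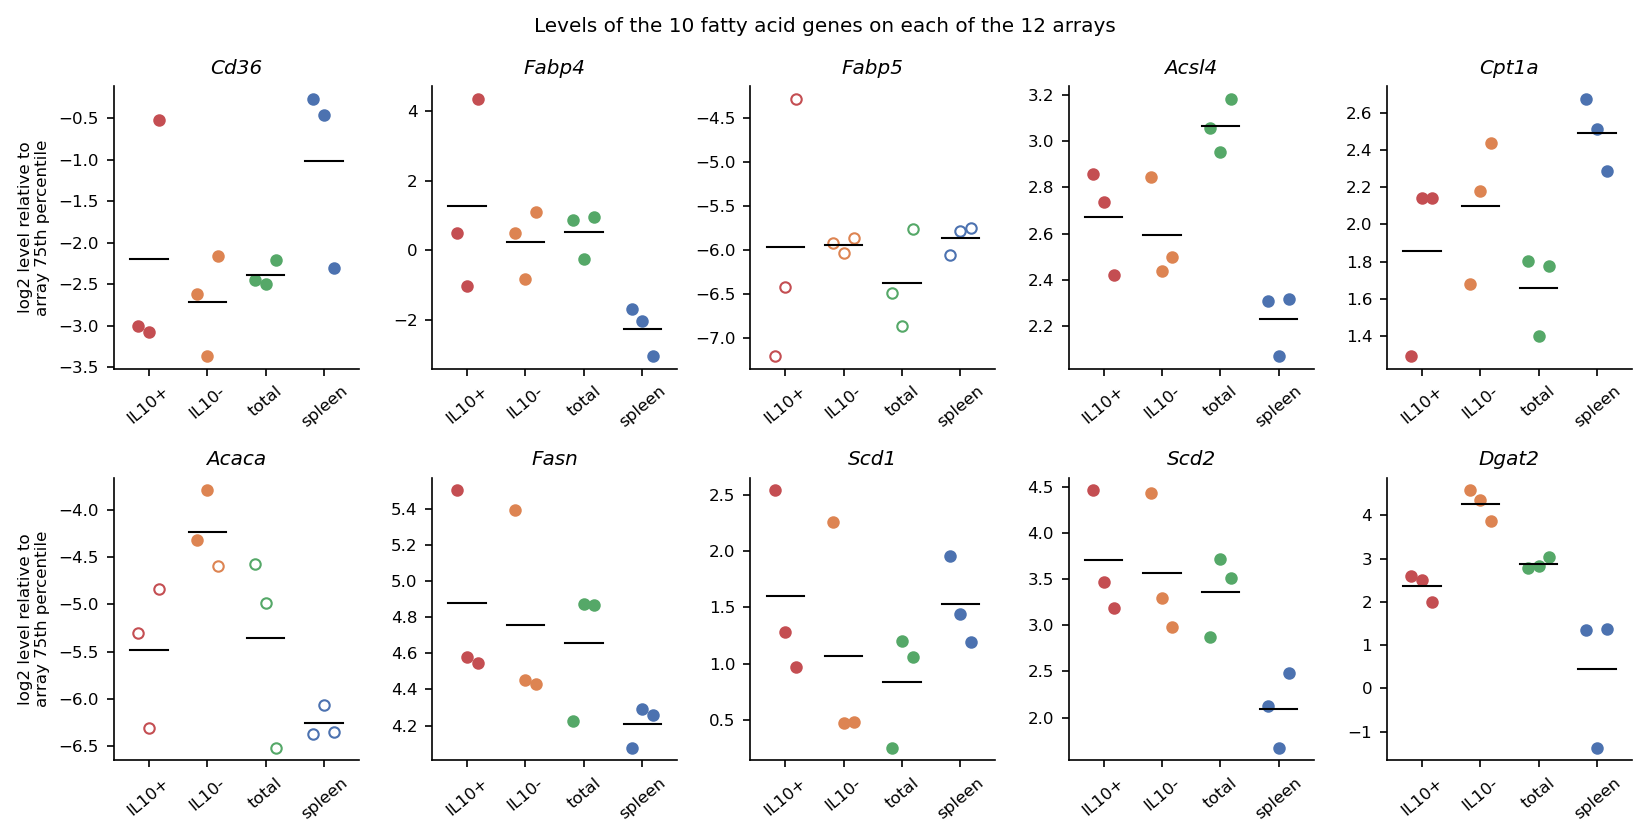
Levels of the 10 genes (log2, scaled to the 75th percentile of each array, with a scale of its own per panel) on each array of IL10+, IL10- and total tumour Treg and of spleen Treg. Points are arrays in order of replicate number, open where the probe was not well above background, and lines are means of 3. The Dgat2 probe drawn separates all 4 groups, whereas IL10+ replicate 3 stands far above its group in Fabp4 (4.35) and Cd36 (-0.52). The other Dgat2 probes, not drawn, do not separate IL10+ from total tumour Treg.

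Promoters of 5 of the 10 genes are in the RefSeq promoter table (GRCm38.p6), those of Cd36, Acsl4, Cpt1a, Acaca and Fasn; Fabp4, Fabp5, Scd1, Scd2 and Dgat2 have no entry. The promoter of Acsl4 is shown because the gene rose in total tumour Treg, that of Cpt1a because it fell, and that of Fasn as a lipogenic gene that passed in no comparison. Each runs 5′ to 3′ from 250 bases before the gene start to 50 after it. Capitals mark matches, on either strand, to the CCAAT box (CCAAT or ATTGG), the GC box (GGGCGG or CCGCCC), the E-box CACGTG or the core of a sterol regulatory element (TCACNCCAC or GTGGNGTGA).
Acsl4, chrX:142390486-142390785, minus strand: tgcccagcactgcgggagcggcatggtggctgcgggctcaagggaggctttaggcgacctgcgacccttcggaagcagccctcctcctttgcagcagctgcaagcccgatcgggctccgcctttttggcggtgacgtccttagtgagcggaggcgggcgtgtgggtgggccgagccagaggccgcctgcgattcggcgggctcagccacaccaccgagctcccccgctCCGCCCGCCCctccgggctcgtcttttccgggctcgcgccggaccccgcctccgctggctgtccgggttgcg
Cpt1a, chr19:3323051-3323350, plus strand: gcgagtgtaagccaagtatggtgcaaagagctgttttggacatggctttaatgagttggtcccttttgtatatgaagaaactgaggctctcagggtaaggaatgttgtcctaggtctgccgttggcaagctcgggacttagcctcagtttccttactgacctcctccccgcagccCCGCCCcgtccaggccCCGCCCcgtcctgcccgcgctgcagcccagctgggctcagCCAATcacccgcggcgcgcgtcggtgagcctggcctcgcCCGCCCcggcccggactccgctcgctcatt
Fasn, chr11:120824498-120824797, minus strand: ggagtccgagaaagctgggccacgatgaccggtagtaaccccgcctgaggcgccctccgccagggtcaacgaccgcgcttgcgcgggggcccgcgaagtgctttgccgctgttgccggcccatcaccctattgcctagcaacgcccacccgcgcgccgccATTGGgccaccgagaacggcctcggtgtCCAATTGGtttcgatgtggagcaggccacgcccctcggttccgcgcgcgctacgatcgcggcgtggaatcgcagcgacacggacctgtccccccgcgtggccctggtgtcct
The Acsl4 window holds 2 GC box matches, which overlap by 2 bases, and no CCAAT box. The Cpt1a window holds 3 GC boxes and 1 CCAAT box, and the Fasn window 3 CCAAT boxes, a pair of which overlap on opposite strands, and no GC box. Of 32851 promoters of 300 bases, 37.4% hold a CCAAT box, 35.7% a GC box, 7.15% CACGTG and 1.24% the sterol element core, the last of which is in none of the 3 windows shown. These matches describe the windows and say nothing on binding.

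Cd36, the scavenger receptor that takes up long-chain fatty acids and is abundant on platelets, capillary endothelium and macrophages, was read by a probe spanning chr5:17295116-17297548 (mm8, minus strand). Its level was -3.00, -3.07 and -0.52 in IL10+, -2.62, -3.37 and -2.16 in IL10-, -2.45, -2.50 and -2.21 in total tumour, and -0.27, -0.46 and -2.31 in spleen Treg. A pair of spleen arrays and IL10+ replicate 3 were high, and each tumour group overlapped spleen. Cd36 was 1.38 lower in total tumour than in spleen Treg (difference -1.38, SE 0.72, limma adjusted p = 0.151), 1.19 lower in IL10+ (difference -1.19, adjusted p = 0.192) and 1.71 lower in IL10- tumour Treg (difference -1.71, adjusted p = 0.0737), and none passed. Without IL10+ replicate 3 the IL10+ difference from spleen was -2.03 (limma adjusted p = 0.0172), and without spleen replicate 3 the total tumour difference was -2.03 (limma adjusted p = 0.0497). In both settings the IL10- difference passed as well, at -1.71 (limma adjusted p = 0.0206) and -2.36 (limma adjusted p = 0.0237).

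Markers of blood cells moved with Cd36 in part. Over the 4 measured erythroid and platelet markers, the summed linear level was 12.0 to 35.3 in IL10+, 8.67 to 24.7 in IL10-, 6.48 to 11.5 in total tumour and 309 to 772 in spleen Treg. On no array above background were Itga2b in IL10+, Ppbp in IL10-, and both in total tumour Treg. All 4 were well above background on spleen replicates 1 and 2, and 2 of the 4 on spleen replicate 3. The lowest spleen value, 309, was that of spleen replicate 3, where Cd36 (-2.31) lay within the range of the tumour arrays. Of these 4, 1 was called lower and 0 higher in total tumour and in IL10- tumour against spleen Treg. In IL10+ tumour against spleen Treg 1 was lower and 1 higher. Their mean log2 level was highest on spleen replicate 2 (2.37) and spleen replicate 1 (-0.0089), which are also the spleen arrays high in Cd36, and lower on spleen replicate 3 (-1.25). The genes whose levels over the 12 arrays were most like Cd36, among 12625 named genes, were Gpx1 (Pearson r = 0.903), Nfe2 (0.884) and Particl (0.884). The part of blood cells in the Cd36 values was not tested.

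Fabp4, which carries fatty acids in adipocytes, macrophages and capillary endothelium, was read at chr3:10187065-10187794 (mm8, minus strand). Its level was 0.49, -1.04 and 4.35 in IL10+, 0.48, -0.83 and 1.08 in IL10-, 0.86, -0.26 and 0.94 in total tumour, and -1.69, -2.02 and -3.04 in spleen Treg. All 9 tumour arrays lay above all 3 spleen arrays. Fabp4 rose in IL10+ tumour Treg by 3.52 (SE 1.14, 11.5-fold, limma adjusted p = 0.0261), but without IL10+ replicate 3 the rise was 1.98 (limma adjusted p = 0.0418). The call was lost under 6 of 26 alternatives, among them without spleen replicate 3 (3.12, limma adjusted p = 0.0819), without spleen replicate 2 (3.63, limma adjusted p = 0.0537) and with the slide as a fixed block (3.38, limma adjusted p = 0.106). In total tumour Treg the difference from spleen was 2.76 (SE 1.14, 95% interval 0.22 to 5.30, limma adjusted p = 0.0759), and in IL10- tumour Treg 2.50 (95% interval -0.044 to 5.04, limma adjusted p = 0.0949). Neither passed. The value of total tumour Treg on the slide that holds both groups, with its lone array, was 3.19. Without IL10+ replicate 3, which enters these through the shared spread alone, both passed (limma adjusted p = 0.00652 and 0.00882).

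The array with the most Fabp4, IL10+ replicate 3, had the highest mean level of all 12 arrays in 5 of 10 marker lists, those of endothelial cells, macrophages and monocytes (4.58), neutrophils (-1.62), epithelial tumour cells (-1.33) and adipocytes (-4.12). It was also the dimmest array, on which signals at background read high after scaling: Fabp5 was -4.28 there, against -7.21 and -6.41 on the other IL10+ arrays. Of the 7 adipocyte markers 1 was well above background on it, so that list mean is mostly background. By contrast, 5 of 7 endothelial, 4 of 5 neutrophil, 4 of 5 epithelial and 12 of 12 macrophage and monocyte markers were well above background on this array. The mean log2 level of 7 endothelial markers was -3.54, -4.25 and -1.19 in IL10+, -3.17, -4.12 and -2.48 in IL10-, -2.47, -3.93 and -2.87 in total tumour, and -2.93, -3.33 and -4.28 in spleen Treg. Its summed linear level was 1.22 to 5.28 in IL10+, 1.55 to 2.00 in IL10-, 1.15 to 2.34 in total tumour and 3.26 to 4.09 in spleen Treg. Kdr and Tek in IL10+, Kdr in IL10-, Tek in total tumour, and Tek, Tie1 and Emcn in spleen Treg were below background on all arrays of the group. Over the groups the list did not follow Fabp4: of its 6 tested members 1 was called higher and 1 lower in total tumour against spleen Treg, with a median difference of 0.43. Emcn, an endothelial sialomucin, was second among the genes most like Fabp4 over the 12 arrays (Pearson r = 0.937), after Ap3m2 (0.939) and before Ocstamp (0.930), and was not well above background on any spleen array. Of 7 adipocyte markers, Lep, Plin1, Cidec and Retn were not well above background on any array. Cfd was on 1 IL10+ array, Cidea on 2 IL10- arrays, and Adipoq on 1 IL10- array and 3 spleen arrays. The summed level of the list was 0.0612 to 0.505 in IL10+, 0.121 to 0.246 in IL10-, 0.0863 to 0.0904 in total tumour and 0.197 to 0.281 in spleen Treg. Macrophage markers, given above, also moved with tumour against spleen. The part of these cells and of the brightness of the array in the Fabp4 values was not tested.

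**Figure D2:**
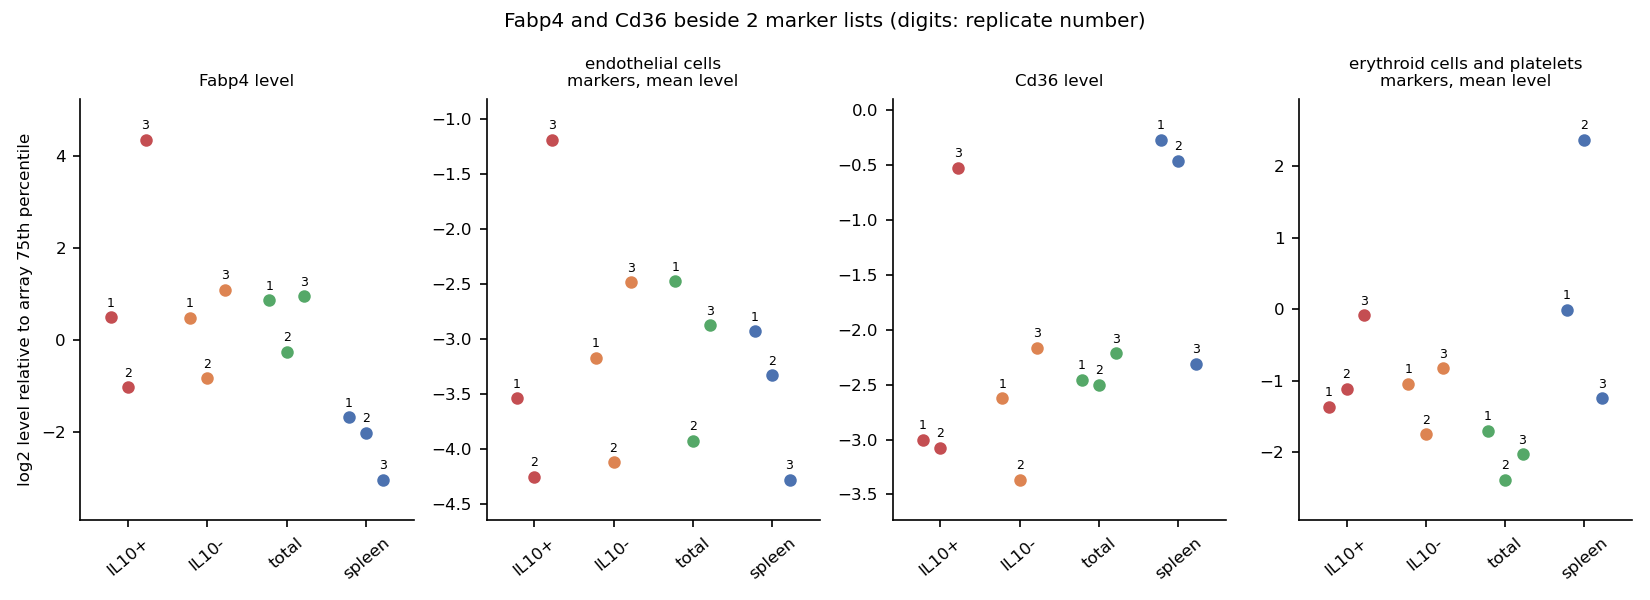
Levels of Fabp4 and Cd36 and the mean level of 7 endothelial and 4 erythroid and platelet markers (log2, scaled to the 75th percentile of each array) on each array of IL10+, IL10- and total tumour Treg and of spleen Treg, with the replicate number above each point. IL10+ replicate 3 is the highest array in Fabp4 (4.35) and in the endothelial list (-1.19), as it is in 4 other marker lists not drawn, and spleen replicates 1 and 2 are highest in Cd36 and in the blood cell list.

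Fabp5, the neighbour of Fabp4 in the same family, was read by 1 probe at chr3:9998905-9998964 (mm8, plus strand), and on none of the 12 arrays was it well above background. Its signal lay between -7.21 and -4.28 in IL10+, -6.04 and -5.87 in IL10-, -6.87 and -5.76 in total tumour, and -6.05 and -5.75 in spleen Treg. These groups overlap and none was above background, so no difference was tested.

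Acsl4 joins coenzyme A to arachidonic and other long polyunsaturated fatty acids, and is known for its part in ferroptosis. Its probe lies at chrX:137564427-137564486 (mm8, minus strand), and its level was 2.86, 2.74 and 2.42 in IL10+, 2.85, 2.44 and 2.50 in IL10-, 3.06, 2.95 and 3.18 in total tumour, and 2.31, 2.07 and 2.32 in spleen Treg. Total tumour Treg were highest, and no tumour array overlapped spleen. Acsl4 rose in total tumour against spleen Treg by 0.83 (SE 0.17, 1.78-fold, limma adjusted p = 0.00321). On the slide that holds both groups the value, from 1 total tumour array, was 0.95. With normexp background correction the value was 0.49 and the call was lost (limma adjusted p = 0.672). In IL10+ tumour Treg the difference from spleen was 0.44 (limma adjusted p = 0.0515) and in IL10- tumour Treg 0.36 (limma adjusted p = 0.100), neither of which passed. The IL10+ value passed under 8 of 26 alternatives, among them quantile normalization (0.54, limma adjusted p = 0.0193) and the deposited values (0.54, limma adjusted p = 0.0193). With normexp it was -0.70 (limma adjusted p = 0.257). A second Acsl4 probe gave larger values, 1.76 in total tumour, 1.65 in IL10+ and 1.65 in IL10- tumour Treg against spleen, all past the threshold (limma adjusted p = 2.63e-05, 2.52e-05 and 3e-05). The probes thus disagree on size and on the calls of the VERT-X groups, and agree on direction.

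Cpt1a transfers acyl groups to carnitine at the outer mitochondrial membrane, the step that gates entry of long-chain fatty acids into mitochondria. Its probe lies at chr19:3385374-3385433 (mm8, plus strand) and is spotted 10 times on each array, with an SD between spots of 0.0344 to 0.0736. Its level was 1.29, 2.14 and 2.14 in IL10+, 1.68, 2.18 and 2.44 in IL10-, 1.80, 1.40 and 1.77 in total tumour, and 2.68, 2.51 and 2.29 in spleen Treg. Replicate 1 was low in both VERT-X groups, and only IL10- replicate 3 reached into the spleen range. Cpt1a fell by 0.83 in total tumour against spleen Treg (difference -0.83, SE 0.27, 1.78-fold lower, limma adjusted p = 0.0332). The second probe gave -1.02 (limma adjusted p = 0.00703). The call was lost under 10 of 27 alternatives, among them normexp (-0.93, limma adjusted p = 0.0816) and the slide that holds both groups (-0.72, limma adjusted p = 0.170), with the value between -1.02 and -0.70 throughout. Leaving out any 1 total tumour array, spleen replicate 1 or spleen replicate 2 was enough to lose it (limma adjusted p from 0.0582 to 0.114). In IL10+ tumour Treg the difference from spleen was -0.63 (95% interval -1.24 to -0.022, limma adjusted p = 0.0785) and in IL10- tumour Treg -0.39 (95% interval -1.004 to 0.22, limma adjusted p = 0.258). These did not pass, whereas with the second probe both did, at -0.88 in IL10+ (limma adjusted p = 0.0115) and -0.66 in IL10- tumour Treg (limma adjusted p = 0.0416). The IL10+ value also passed with normexp (-1.52, limma adjusted p = 0.00449) and with the mean of all probes (-0.76, limma adjusted p = 0.0370).

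Synthesis begins with Acaca, the carboxylase that makes malonyl-CoA, which both feeds Fasn and inhibits Cpt1 enzymes. Its brightest of 3 probes spans chr11:84110139-84111142 (mm8, plus strand) and was well above background on 2 arrays, both of IL10- tumour Treg. The signal was -5.30, -6.31 and -4.84 in IL10+, -4.32, -3.80 and -4.59 in IL10-, -4.57, -4.98 and -6.52 in total tumour, and -6.37, -6.06 and -6.35 in spleen Treg. The other 10 arrays were at background, and so were all arrays for the other 2 probes apart from 1 IL10- array, so the order of the groups is not read and the gene was not tested.

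Fasn, the multifunctional enzyme that builds palmitate, was read at chr11:120623236-120623295 (mm8, minus strand). Its level was 5.50, 4.58 and 4.54 in IL10+, 5.39, 4.45 and 4.43 in IL10-, 4.22, 4.87 and 4.87 in total tumour, and 4.08, 4.29 and 4.26 in spleen Treg. Every IL10+ and IL10- array lay above spleen, while total tumour replicate 1 lay within it. The difference from spleen was 0.67 in IL10+ (95% interval -0.077 to 1.41, limma adjusted p = 0.120), 0.55 in IL10- (-0.19 to 1.29, limma adjusted p = 0.196) and 0.45 in total tumour Treg (-0.30 to 1.19, limma adjusted p = 0.314), and none passed. The second Fasn probe gave -0.13 in total tumour against spleen Treg (limma adjusted p = 0.771), so the probes disagree on sign there. With that probe the IL10+ arrays (-1.41 to -0.78) and the IL10- arrays (-1.60 to -0.69) overlapped spleen (-1.73 to -1.33).

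Scd1 and Scd2 are stearoyl-CoA desaturases, which put the double bond into oleate and palmitoleate. They are neighbours on chromosome 19, with 88.3 kb between their probes at chr19:44448208-44448267 (minus strand) and chr19:44359845-44359904 (plus strand, both mm8), and their sequences are alike, so that some signal of one could come from the other; this was not tested. Scd2 had a level of 4.46, 3.47 and 3.19 in IL10+, 4.43, 3.30 and 2.98 in IL10-, 2.87, 3.72 and 3.51 in total tumour, and 2.12, 1.67 and 2.48 in spleen Treg. No tumour array overlapped spleen. Scd2 rose against spleen by 1.62 in IL10+ (SE 0.44, 3.07-fold, limma adjusted p = 0.0121), by 1.48 in IL10- (2.79-fold, limma adjusted p = 0.0193) and by 1.27 in total tumour Treg (2.42-fold, limma adjusted p = 0.0415). The total tumour call was lost under 12 of 26 alternatives, with the value between 1.001 and 1.52, among them on the slide that holds both groups (1.42, limma adjusted p = 0.146). Leaving out total tumour replicate 2 or 3, spleen replicate 1 or 2, or replicate 2 of IL10+ or IL10- in the shared fit lost it as well (limma adjusted p from 0.0515 to 0.130). The IL10- call was lost without IL10- replicate 1 (1.05, limma adjusted p = 0.0647) or without spleen replicate 2 (1.27, limma adjusted p = 0.0680). With normexp the IL10+ value was 0.40 (limma adjusted p = 0.673) and the IL10- value 1.42 (limma adjusted p = 0.285). The total tumour value was 1.001 (limma adjusted p = 0.536), and none passed.

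Scd1 did not follow the same order of groups. Its level was 2.54, 1.28 and 0.97 in IL10+, 2.26, 0.47 and 0.48 in IL10-, 0.25, 1.20 and 1.06 in total tumour, and 1.96, 1.44 and 1.19 in spleen Treg. All tumour groups overlapped spleen. The difference from spleen was 0.070 in IL10+ (95% interval -1.16 to 1.30, limma adjusted p = 0.925), -0.46 in IL10- (-1.69 to 0.77, limma adjusted p = 0.513) and -0.69 in total tumour Treg (-1.92 to 0.54, limma adjusted p = 0.346). The difference between the Scd2 and Scd1 responses was not tested.

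Within the VERT-X groups, Fasn, Scd1 and Scd2 were highest on replicate 1 of IL10+ and on replicate 1 of IL10-, which lie on different slides. The excess of replicate 1 over the mean of the other replicates was 0.94 in IL10+ and 0.95 in IL10- for Fasn, 1.42 and 1.79 for Scd1, and 1.13 and 1.29 for Scd2. Acsl4 and Dgat2 were highest on replicate 1 of both groups too, so 5 of the 8 tested genes had this pattern, beside 31% of 15470 features measured on all arrays. Of 16 other tested genes of fatty acid synthesis, elongation and desaturation, 10 had it (62.5%), with an excess of 0.99 and 1.30 for Me1, 1.03 and 0.92 for Elovl6 and 0.85 and 1.16 for Fads2. Total tumour replicate 1 was the lowest of its group in Fasn, Scd1 and Scd2. Makeup differed on these arrays too. Fibroblast markers summed to a linear level of 354 on IL10+ replicate 1, against 143 and 179 on replicates 2 and 3. In the same order the sums were 296, 114 and 124 in IL10-, and 111, 150 and 147 in total tumour Treg. Treg and CD4 T cell markers summed to 382, 785 and 639 in IL10+ and 480, 770 and 662 in IL10-. In total tumour Treg they summed to 748, 551 and 743. The part of makeup in this pattern was not tested.

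Dgat2 catalyses the last step of triglyceride synthesis, and was read at chr7:99028897-99028956 (mm8, minus strand). Its level was 2.60, 2.51 and 2.00 in IL10+, 4.58, 4.35 and 3.88 in IL10-, 2.79, 2.82 and 3.03 in total tumour, and 1.35, -1.37 and 1.37 in spleen Treg. With this probe no pair of groups overlapped: IL10- stood highest, then total tumour, then IL10+, then spleen. On the other Dgat2 probes IL10- stayed highest and spleen lowest, but IL10+ and total tumour Treg overlapped. IL10+ levels there were -0.095 to 0.74 and 0.21 to 0.73, against 0.61 to 0.65 and 0.18 to 0.43 in total tumour Treg. Dgat2 rose against spleen by 3.82 in IL10- (SE 0.61, 14.1-fold, limma adjusted p = 0.000688), by 2.43 in total tumour (5.39-fold, limma adjusted p = 0.0103) and by 1.92 in IL10+ tumour Treg (3.78-fold, limma adjusted p = 0.0248). Spleen replicate 2 lay far below the other spleen arrays. It was also the lowest of the 12 arrays in the mean log2 level of 11 Treg and CD4 T cell markers, at 1.84, against 3.18 and 3.21 on the other spleen arrays, and the highest in the blood cell list. The summed linear level of the 11 markers did not set it apart, at 533 against 553 and 528 on spleen replicates 1 and 3. Of the 11, 9 were well above background on spleen replicate 2, against 10 and 10. The part of the makeup of this array in the Dgat2 values was not tested. Without spleen replicate 2 the rises were 2.91, 1.52 and 1.01, all past the threshold (limma adjusted p = 4.58e-05, 0.00163 and 0.00920). The IL10+ call was lost under 8 of 26 alternatives. Among these were leaving out IL10+ replicate 1 (1.80, limma adjusted p = 0.0620) or replicate 2 (1.85, limma adjusted p = 0.0611). Normexp (0.76, limma adjusted p = 0.364), array weights (1.17, limma adjusted p = 0.0889) and only the groups compared (1.92, limma adjusted p = 0.0977) lost it too. With normexp and on the slide that holds both groups the total tumour values were 1.99 (limma adjusted p = 0.0832) and 2.58 (limma adjusted p = 0.115).

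The split on Il10 addressed whether Treg that express this suppressive cytokine differ from tumour Treg that do not. Between IL10+ and IL10- tumour Treg 0 of the 8 tested genes passed in limma, beside 0.0515% of all features (8 of 15541), and 1 of the 8 and 720 of all features had an unadjusted p under 0.05. Dgat2 came closest: it lay lower on every IL10+ array, by 1.90 (difference -1.90, SE 0.61, 95% interval -3.27 to -0.53, 3.73-fold lower, limma unadjusted p = 0.0114, adjusted p = 0.889). Its other probes gave -1.97 and -1.89. On the slide that holds both groups, 1 IL10+ array against 3 IL10- arrays, the value was -1.76. Without spleen replicate 2, which enters this comparison through the shared spread alone, Dgat2 passed (limma adjusted p = 0.0205). Groups of 7.31% of all features do not overlap in this comparison, and of the 8 tested genes 1, Dgat2, did not.

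The other 7 differed by less. Fabp4 was 1.02 higher in IL10+ (95% interval -1.52 to 3.56), Scd1 0.53 (-0.70 to 1.75), Cd36 0.52 (-1.09 to 2.12), Scd2 0.14 (-0.85 to 1.13), Fasn 0.12 (-0.63 to 0.86) and Acsl4 0.077 (-0.30 to 0.45), and Cpt1a was 0.24 lower (difference -0.24, -0.85 to 0.37). The intervals allow a change of more than 1 log2 unit for Fabp4, Scd1, Cd36 and Scd2. Without IL10+ replicate 3 the Fabp4 and Cd36 differences changed sign, to -0.52 and -0.32, and on the slide that holds both groups they were -1.28 and -0.36.

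**Figure D3:**
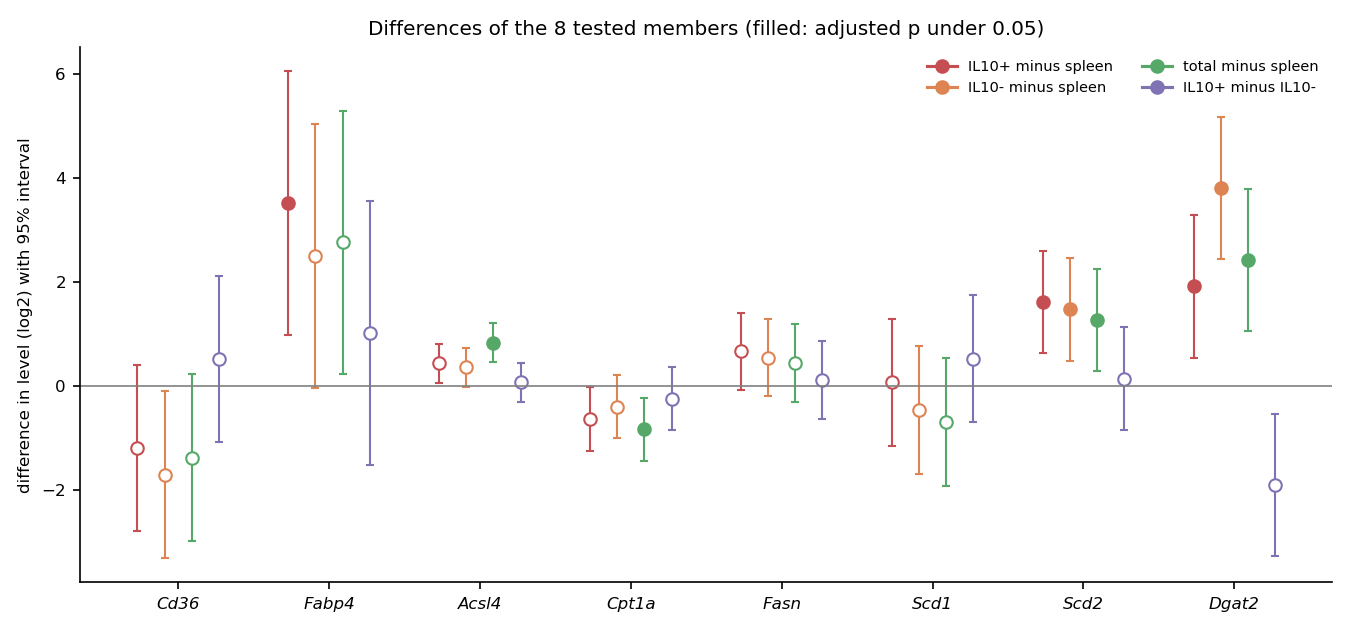
Differences in level (log2) of the 8 tested genes, IL10+, IL10- and total tumour Treg each minus spleen Treg and IL10+ minus IL10- tumour Treg, with 95% intervals from limma. Filled points passed at an adjusted p under 0.05. Dgat2 and Scd2 are filled in all 3 comparisons with spleen, and no point of IL10+ minus IL10- is filled, although the Dgat2 interval there (-3.27 to -0.53) lies below 0.

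**Figure D4:**
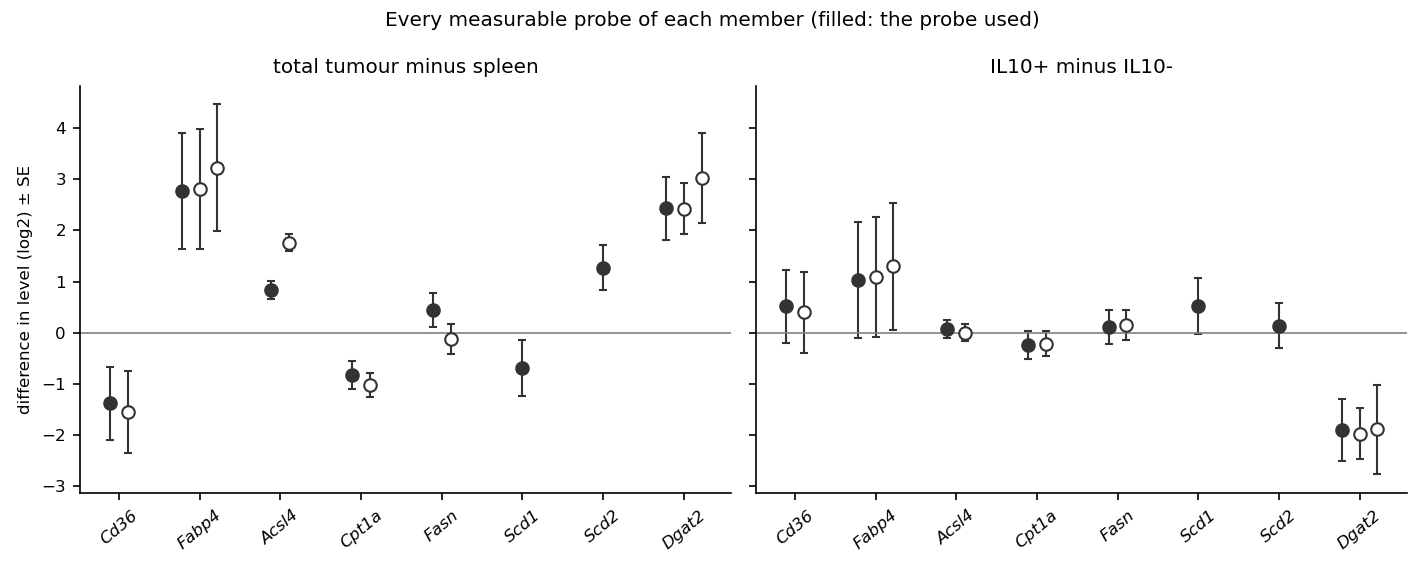
Differences in level (log2) with SE for every probe of the 8 tested genes that passed the filter, total tumour minus spleen Treg on the left and IL10+ minus IL10- tumour Treg on the right, with the probe used filled. The 3 Dgat2 probes lie together (-1.97 to -1.89 on the right), whereas the 2 Fasn probes lie on either side of 0 on the left (0.45 and -0.13).

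The VERT-X groups together were also set against total tumour Treg, which came from the other strain and sort. Here 0 of the 8 tested genes passed in limma, beside 1.15% of all features called, and 1 of the 8 and 3085 of all features had an unadjusted p under 0.05. Acsl4 was 0.43 lower in the VERT-X groups without overlap, as 12.9% of all features were in either direction (difference -0.43, SE 0.15, limma adjusted p = 0.151), and with limma's array weights it was called (-0.51, limma adjusted p = 0.0118). The second Acsl4 probe gave -0.11 (limma adjusted p = 0.688), with levels of 1.28 to 1.47 in IL10+ and 1.21 to 1.48 in IL10-, against 1.28 to 1.75 in total tumour Treg, so its groups overlapped. Strain and sort cannot be told apart in this comparison.

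The genes most like each member over the 12 arrays are a description of these arrays, which share groups and brightness. They were Ppp4r1l-ps, Sdf4 and Pkmyt1 for Acsl4 (r = 0.973, 0.956 and 0.944), Hps1, Ints9 and Sorl1 for Cpt1a (r = 0.961, 0.954 and 0.945), and Nthl1, Wfs1 and Gna11 for Fasn (r = 0.969, 0.969 and 0.966). For Scd1 they were Lrrk2, Amacr and Ywhag (r = 0.958, 0.907 and 0.900), for Scd2 Ehd2, Dctd and Alg6 (r = 0.970, 0.969 and 0.969), and for Dgat2 Cdca7, Lgals7 and Tff1 (r = 0.965, 0.955 and 0.955). The highest r of Fabp5 and Acaca was not taken, because these were not measured above background.

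Other genes of the pathway were counted by list, in total tumour against spleen Treg, where 42.3% of all features were called. Of 9 tested uptake and binding genes 6 were called higher and 2 lower (median difference 1.17, or 0.62 with genes below background at their bound). Those with the smallest p were Slc27a1, a fatty acid transport protein (1.36, SE 0.20, limma adjusted p = 0.000495), Cav1, the coat protein of caveolae (5.57, limma adjusted p = 0.00115), and Vldlr, a receptor for triglyceride-rich lipoprotein (at least 5.33-fold higher, limma adjusted p = 0.00125). A fold of at least so much is a lower bound, given because the gene was not well above background on any spleen array: it is the mean level of the tumour arrays against, per spleen array, the higher of the lowest well-measured signal and the signal of the gene. For 3 of the 9 uptake and binding genes, no array of 1 or both groups was well above background. Such genes, here and in the lists below, passed the filter through their other arrays alone. Their calls and limma p rest in part on background signal. Cav1 was well above background on 2 of 3 spleen arrays. It is abundant in fibroblasts and endothelium, and fibroblast markers moved with the tumour groups. Of 8 acyl-CoA synthetases 2 were higher and 2 lower, with Acsl6, which activates long-chain fatty acids, at least 5.36-fold higher (limma adjusted p = 0.000104) and the acetyl-CoA synthetases Acss1 and Acss2 at -2.70 and -1.26 (limma adjusted p = 1.05e-05 and 0.00333).

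Synthesis, elongation and desaturation held 16 tested genes, of which 7 were called higher and 1 lower (median difference 0.43, or 0.18 with bounds). Of the 16, 5 were at background on all arrays of 1 or both groups, as were 3 of 17 triglyceride and droplet genes. Me1, the malic enzyme that supplies NADPH, was at least 16.7-fold higher (limma adjusted p = 4.65e-06), and the fatty acid desaturases Fads2 and Fads3 rose by 4.34 and 4.29 (limma adjusted p = 0.000162 and 0.00142). Each of these desaturases was well above background on 1 of 3 spleen arrays. Triglyceride synthesis and lipid droplets held 17, with 6 higher and 2 lower (median 0.26, or 0.15 with bounds): Hilpda, an inhibitor of lipolysis on droplets, rose by 3.18, Dgat1, the other enzyme of the Dgat2 step, by 2.89, and the droplet coat protein Plin2 by 2.35 (SE 0.17, 0.21 and 0.18). Of 5 lipolysis genes 0 passed in limma, with a median of -0.34, and 1 had an unadjusted p under 0.05. Beta-oxidation had 1 higher and 2 lower of 19 (median 0.077), with Cpt1c, the brain-type relative of Cpt1a, at least 2.74-fold higher (limma adjusted p = 0.000478), and Hadhb and Acaa2, which act in the last steps of the cycle, at -0.52 and -0.53 (limma adjusted p = 0.0167 and 0.0202). Of 11 regulators 3 were higher and 3 lower (median 0.045, or 0 with bounds), with Ppargc1b, a coactivator of mitochondrial genes, at -2.02, Insig1, which retains SREBP in the endoplasmic reticulum, at 1.74, and the nuclear receptor partner Rxra, above background on 2 of 3 spleen arrays, at 3.23. None of the 85 tested genes of these 7 lists passed in limma between IL10+ and IL10- tumour Treg, and 2 of them, Acaa2 and Eci1, had an unadjusted p under 0.05.

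**Figure D5:**
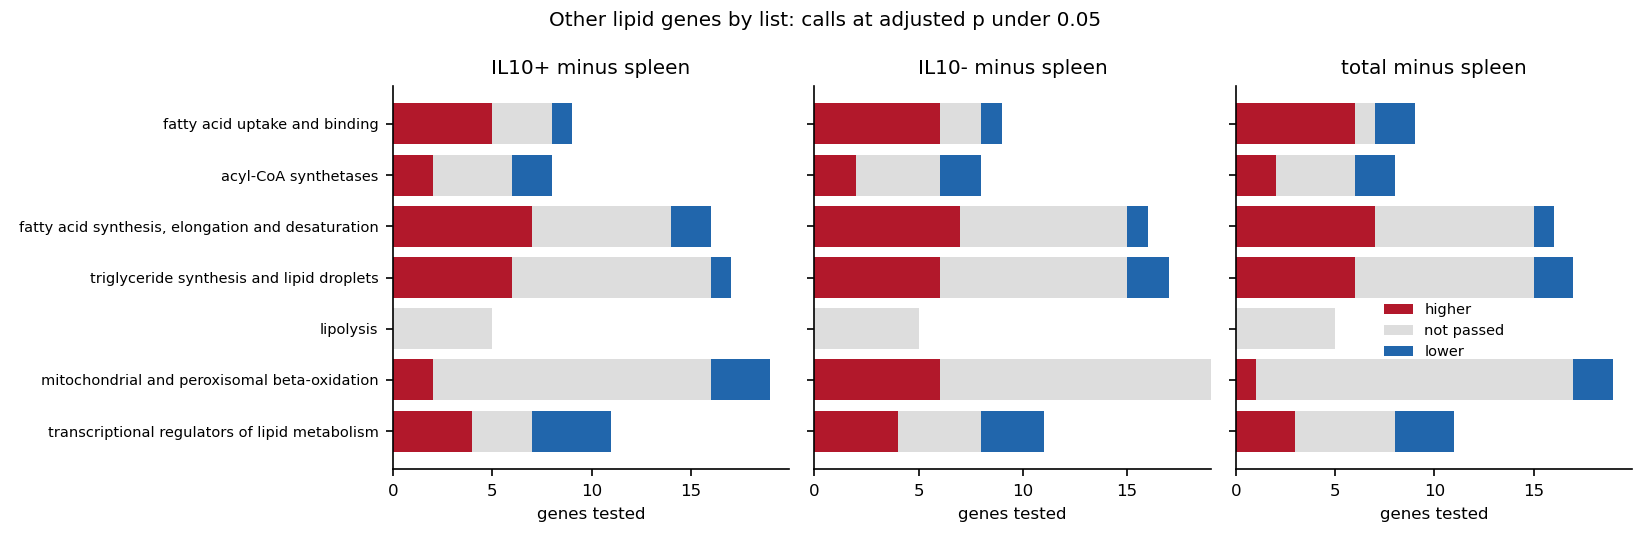
Number of tested genes in each of 7 lists of lipid metabolism that were called higher, called lower or did not pass (adjusted p under 0.05), in IL10+, IL10- and total tumour Treg, each against spleen Treg. Bar length is the number tested, with genes at background in a group included. Uptake and binding has 5, 6 and 6 of 9 genes higher and lipolysis has 0 of 5 called in any of the panels.

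The same lists were counted in IL10+ and IL10- tumour Treg against the same spleen arrays, where 50.8% and 49% of all features were called. Genes at background in 1 or both groups are counted too, 4 and 2 of the 9 uptake and 5 and 5 of the 16 synthesis genes. In IL10+ and IL10- tumour Treg, 5 and 6 of the 9 uptake genes were called higher and 1 and 1 lower, and 7 and 7 of the 16 synthesis genes were higher and 2 and 1 lower. Beta-oxidation had 2 higher and 3 lower of 19 in IL10+, and 6 higher and 0 lower in IL10- tumour Treg; the difference between these counts was not tested. Acyl-CoA synthetases had 2 and 2 of 8 higher and 2 and 2 lower, triglyceride synthesis and lipid droplets 6 and 6 of 17 higher and 1 and 2 lower, and regulators 4 and 4 of 11 higher and 4 and 3 lower. Of the 5 lipolysis genes 0 passed in limma in either, and 1 and 0 had an unadjusted p under 0.05. Hilpda rose by 3.57 and 3.71, Plin2 by 2.50 and 2.20, and Dgat1 by 2.82 and 2.85 in IL10+ and IL10- tumour Treg.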

How the data were processed

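RNA of the 4 Treg populations was hybridised to 12 single-channel Agilent mouse arrays, 3 per population. Per the file headers, the deposited scanner intensity came from Agilent Feature Extraction 9.5.3.1, which subtracted background and removed trends within an array but did not scale between arrays, and probes were placed on mm8. Mean spot and local background intensity from the same files served 1 alternative. Another alternative used the deposited series value table of log10 values (column medians 1.33, Pearson r of 0.995 or more with log10 of the processed intensity of the same array), whose normalization the sources used here do not give. Exon and transcript positions of the probes were not analysed here.

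Control spots and spots flagged as outliers were left out, and spots of a probe were averaged, giving 41174 probes. Names came through RefSeq accessions or symbols (GRCm38.p6, names and promoters only) for 33026 probes. Log2 levels were scaled so that each array had its 75th percentile at 0, and the brightest probe stood for a gene. Features well above background on at least 3 arrays (15541, of which 13515 were named) were fitted with limma 3.58.1 in R 4.3.3 (lmFit and eBayes, two-sided, group means, 1 spread per feature over all 12 arrays), and the steps were tested on simulated data. The number of arrays limits the precision, and p-values measure the spread between 3 experiments a group. Figures used matplotlib 3.10.9. The genes and lists were chosen with earlier results of these data known. Named were all 10 genes, from each pathway list up to 3 called genes with the smallest p in a comparison, and the 3 named genes most like each tested member.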

Additional observations from a re-analysis of the deposited data

How the results depend on the processing

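Of the 8 tested genes, 4 were called in total tumour, 3 in IL10+ and 2 in IL10- tumour Treg against spleen Treg, and 0 in IL10+ against IL10- and in VERT-X against FoxP3-EGFP tumour Treg. Leaving out 1 array at a time gave 2 to 5, 2 to 5, 1 to 4, 0 to 1 and 0 to 0. In total tumour against spleen Treg the count was 1 with normexp and 2 with no filter on dim probes. It was 2 as well with the slide as a fixed or as a random block. The gene called with normexp was Fabp4, not called in the main fit, while Acsl4, Cpt1a, Scd2 and Dgat2 all lost their calls. Fabp4 was also 1 of the 2 called with the slide as a fixed block. In IL10+ against spleen Treg the count was 1 with no filter and with only the groups compared, 5 with the mean of all probes and 0 with the slide as a fixed block. In IL10- against spleen Treg it was 4 with limma array weights and 0 with the slide as a fixed block, and in VERT-X against FoxP3-EGFP Treg it was 1 with array weights. The causes were not tested. The second brightest probe was an alternative added after seeing the data.

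Directions changed as follows, all in values that did not pass. With normexp, IL10+ minus IL10- was -0.88 for Acsl4, -1.09 for Fasn and -1.02 for Scd2, IL10+ minus spleen was -0.70 for Acsl4, -0.62 for Fasn and -0.36 for Scd1, and VERT-X minus FoxP3-EGFP was 0.16 for Cd36, -0.025 for Cpt1a, -0.23 for Fasn and -0.088 for Scd2. With the slide as a fixed block and on the shared slide alike, IL10+ minus IL10- was -0.36 for Cd36, -1.28 for Fabp4, 0.045 for Cpt1a, -0.18 for Fasn and -0.097 for Scd2. The fixed block also gave 1.13 for Scd1 in IL10- minus spleen and -0.33 for Cpt1a in VERT-X minus FoxP3-EGFP. Array weights gave -0.24 for Scd1 in IL10+ minus spleen, and 0.068 for Cd36, -0.057 for Fasn and -0.015 for Scd2 in VERT-X minus FoxP3-EGFP. The second probe of Fasn gave -0.13 in total tumour minus spleen. Leaving out 1 array moved IL10+ minus IL10- between -0.32 and 0.96 for Cd36, -0.52 and 2.17 for Fabp4, -0.017 and 0.20 for Acsl4, -0.45 and 0.044 for Cpt1a, -0.20 and 0.43 for Fasn and -0.24 and 0.57 for Scd2. It moved IL10+ minus spleen between -0.40 and 0.38 for Scd1, and VERT-X minus FoxP3-EGFP between -0.49 and 0.15 for Cd36, -0.53 and 0.82 for Fabp4 and -0.054 and 0.27 for Fasn.

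Replicate numbers were not used to pair the samples. Deviations of same-numbered IL10+ and IL10- arrays correlated at 0.41, 0.43 and -0.24, and those of same-numbered tumour and spleen arrays between -0.12 and 0.082. In a fit of the IL10+ and IL10- groups only, 452 features had an unadjusted limma p under 0.05, and 1547 with the replicate number as a block. Whether some of the IL10+ and IL10- samples are paired by number is therefore not settled. With the replicate number as a block, the counts were 3 in total tumour, 3 in IL10+ and 2 in IL10- against spleen and 0 in the other comparisons, and with the block and only the groups compared 5, 1, 1 and 0. The dim array of IL10+ replicate 3, whose 75th percentile signal was 98.0, limits what the IL10+ group can show for weak genes.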
